A study of Bos taurus with 18 samples.

Results

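CpG positions that were read at least 10 times in the sperm of every one of 18 Holstein bulls, and that were read fewer than 30 times in each of the 6 bulls whose read counts are listed, were described across the bulls. The rule took the positions on the 29 autosomes that all 18 bulls list and kept those with a coverage (the number of reads at a position) under 30 in H01, H02, H03, L01, L02 and L03. It found 21128 positions, which are 18.4% of the 114810 positions listed in all 18 bulls and 0.0528% of the 39985997 positions listed in at least 1 bull. The other 93682 positions listed in all 18 bulls reached 30 or more reads in at least 1 of the 6 bulls and are called high-coverage positions here. The positions were chosen by coverage and by presence in every bull, so both are descriptions and not findings. The percent of methylation was not used to choose them.

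In mammals a methyl group is added to cytosines that stand before a guanine (CpG). Most CpGs of the sperm genome are methylated, whereas stretches dense in CpGs, many of which lie at gene starts, mostly stay unmethylated. Bisulfite reads out this mark, since methylated cytosines resist it and others are converted, and the share of reads that keep the cytosine at a position is its methylation level in percent. Each level here averages the sperm of a semen straw, so an intermediate level does not tell whether the sperm cells or the parental alleles differed.

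All 18 samples were sperm of adult Holstein bulls with no treatment, from 1 straw per bull, in high and low groups for traits of dairy breeding. The groups of gestation length, sire calving ease, body depth and cow conception rate were set by the genetic merit of the bulls. Those of sire conception rate are labelled high and low, and how they were set is not stated. For gestation length (GL) the high bulls were H03, H09, L03 and L05 and the low bulls H02, H05, L01 and L07. For sire calving ease (SCE), a score of how births of a bull's calves go, the high bulls were H03, H07 and L02 and the low bulls H01, H06 and L09. The labels do not name the high end of SCE as easier or harder, and the study reads it as more difficult calving. For body depth (BDE), a measure of body shape, the high bulls were H02, L03 and L08 and the low bulls H05, H09 and L02. For cow conception rate (CCR), the rate at which cows conceive, the high bulls were H08, H09 and L06 and the low bulls H06, L08 and L09. For sire conception rate (SCR), the success of a bull's inseminations, the high bulls were H01, H02 and H03 and the low bulls L01, L02 and L03. Many bulls serve in several traits, so the comparisons are not independent. The labels give no group for H04 and L04, which were used only in the description across the 18 bulls. The letters H and L in the names belong to the labels. They match the high and low groups of SCR but do not give the group of the other traits. Each bull was sampled once, so the spread between bulls also holds the technical spread.

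The bulls listed between 2751759 (H01) and 21784160 (H08) autosomal positions. In the 6 bulls with listed coverage the mean coverage was between 12.7 and 13.3 reads over all listed positions, and between 14.0 (H01) and 19.6 (L01) reads at the chosen ones. H01 listed the fewest positions. Without it 35124 positions met the rule in the other 17 bulls, 1.66 times as many, whereas leaving out any other bull gave between 21328 and 28847. For a bull with listed coverage this also removed its own limit of 30 reads, so these counts do not measure listing alone. By listing alone, 138479 positions were shared without H01, 136879 without L08 and 128949 without H08, and 115928 to 120057 without any other bull. The mean level of the 35124 positions without H01 was 54.4%, with 31.6% of them under 20%, 27.6% between 20% and 80% and 40.8% over 80%. No depth can be given for the 12 remaining bulls, which come with the percent alone.

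The 21128 positions held methylated and unmethylated sequence in almost equal parts. Their mean level over the 18 bulls was 50.6%, with a median of 47.7%. A level under 20% was found at 7173 positions (33.95%), between 20% and 80% at 6520 (30.9%) and over 80% at 7435 (35.2%). These are called low, intermediate and high positions below. The distribution had a peak at each end: 4546 positions lay under 10% and 6043 at 90% or more, whereas each step of 10 points between 40% and 70% held between 925 and 950 positions. In every one of the 18 bulls 3151 positions were under 20% and 4266 were over 80%, and 1184 stayed between 20% and 80% in all of them. Of the high-coverage positions, 65.8% were low and 5.26% high, with a mean of 22.0%.

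The level of the positions fell along the coverage that chose them. Levels were taken from the 12 other bulls, whose coverage entered the rule only through the minimum of 10 reads. Where the largest coverage among the 6 bulls was 10 to 19 reads, their mean level was 75.02% over 3985 positions. At 20 to 24 reads it was 55.0% over 7181 positions, at 25 to 27 reads 39.6% over 5630 and at 28 to 29 reads 34.4% over 4332. The share of high positions went from 67.4% to 15.7% over the same steps. No step stood at the limit of the rule: the 2226 positions with a largest coverage of 29 had a mean of 33.5%, and the 2284 positions just outside, with 30 reads, had 32.5%. These values describe the positions and carry no test.

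**Figure D1:**
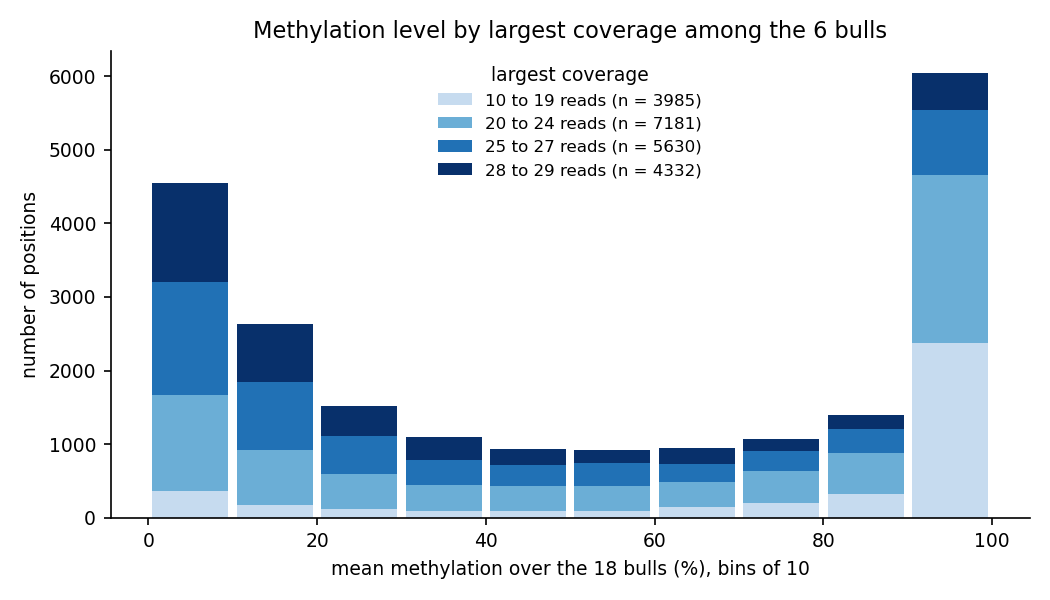
The number of positions in each bin of 10 percentage points of mean methylation over the 18 bulls, with the colours of each bar showing the largest coverage among the 6 bulls with listed coverage. Both ends of the scale are peaks, with 4546 positions under 10% and 6043 at 90% or more, and the positions of 10 to 19 reads stand mostly in the last bin.

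In every bull the chosen positions were methylated far less than the rest of its listed positions. The bull means over the 21128 positions ran from 46.6% (L06) over a median of 50.5% to 53.4% (H06). The bull means over the other listed autosomal positions ran from 78.6% (H01) to 85.4% (H06), and the ranges of both sets did not overlap. The difference was -31.7 ± 1.67 points (SD, n = 18), below 0 in 18 of 18 bulls, with a range from -34.04 to -28.4 (two-sided sign-flip permutation test with 100000 draws, p = 2e-05). In the 6 bulls with listed coverage, other positions with coverage under 30 gave -32.8 ± 1.36 points (SD, n = 6, exact sign-flip permutation test, p = 0.03125, the smallest p that 6 bulls allow). The same positions are scored in each bull, so these p-values show only that the bulls share the direction. They say nothing beyond what the rule selects by coverage and listing.

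The direction depended on the positions used for comparison. The chosen positions lay in 8700 tiles of 2000 bp. Pooled over these tiles, the other listed positions had bull means between 26.9% (H01) and 45.8% (H08). The chosen positions were higher than these in 18 of 18 bulls, by 14.0 ± 4.46 points (SD, n = 18), between 5.38 (H08) and 23.3 (H01). The sign-flip permutation p was 1e-05, the smallest that the permutations can give, and it too shows only a direction shared by the bulls. Tiles with many other listed positions weighed most in the pooled mean. A difference within tiles was not taken, so whether positions were higher than the rest of their own tile was not tested. With a coverage limit of 20 in place of 30, the difference from all other positions shrank to -7.07 ± 1.42 points and stayed below 0 in 18 of 18 bulls. With no coverage limit it was -55.8 ± 1.49 points. Coverage moved with these values, and its part in them was not tested.

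**Figure D2:**
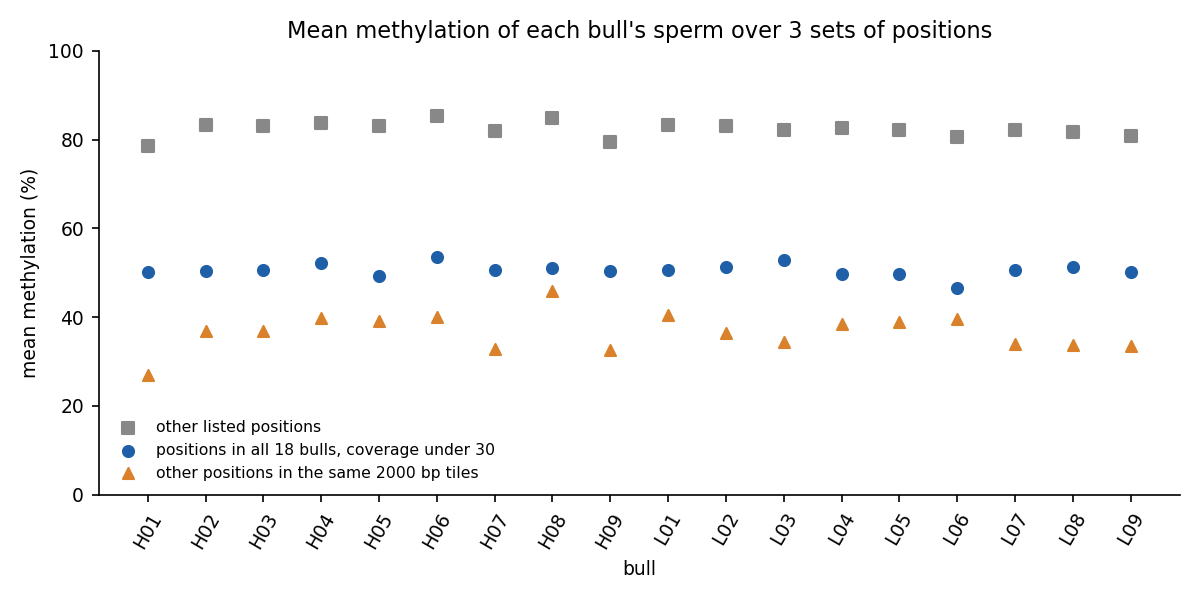
Mean methylation in percent (y axis) of each of the 18 bulls (x axis) over the chosen positions (circles), over all other listed autosomal positions (squares) and over the other listed positions of the same 2000 bp tiles (triangles). In each bull the circle lies between the square and the triangle, with circles from 46.6% to 53.4%.

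Within steps of a bull's own coverage the sign also changed. Other positions of a step include those left out by the rule for 30 or more reads in another bull. They also include those missing from a bull. The sign therefore rests partly on the rule and is not read as an effect of coverage. At 10 to 14 reads the chosen positions were lower than other positions of the same coverage in the 6 bulls, by between -30.5 points (H02) and -16.8 points (L03). At 25 to 29 reads they were higher in the 6 bulls, from 3.00 points in L03 over 5.23 in L01, 7.84 in L02, 9.78 in H03 and 13.9 in H01 to 19.7 in H02. In H02, for example, 7494 chosen positions with 10 to 14 reads had a mean of 54.9% against 85.4% at the others, and 1698 with 25 to 29 reads had 43.8% against 24.1%.

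The 3 classes of positions lay in different surroundings. Within 100 bp, low positions had a median of 19 other positions listed in at least 1 bull, intermediate positions 7 and high positions 5, against 5 around 500000 positions drawn from all listed ones. The positions not chosen here within 1000 bp had a median level of 12.8% around low positions, 45.5% around intermediate and 92.1% around high positions. The level of the surroundings was on the same side as the position itself for 83.3% of low and 85.7% of high positions with such neighbours. Around intermediate positions the surroundings were intermediate for 62.0%, low for 22.5% and high for 15.5%. Only 59 tiles held both low and high positions, of 2565 tiles with low and 4352 tiles with high ones.

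Positions close to each other had like levels. Positions 1 bp apart were taken as the cytosines of both strands of a CpG, which was not checked against the sequence. Over 417 pairs of neighbouring positions 1 bp apart, the median difference of their means was 2.47 points and the correlation across pairs was 0.98. The correlation was 0.92 over 3343 pairs 2 to 10 bp apart, 0.87 over 2411 pairs 51 to 200 bp apart and 0.71 over 2293 pairs over 1000 and up to 5000 bp apart. These correlations are across positions that share bulls and reads, which are not independent replicates. Within single bulls a position 1 bp away was listed for between 31.8% (H01) and 61.4% (H08) of the positions. Such pairs differed by a median of between 5.56 (H08) and 7.78 points (H01).

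The positions were clustered along the chromosomes. Of the 8700 tiles, 4673 held 1 position, and 1115 tiles with 5 or more held 8964 positions (42.4%). The 10 fullest windows of 1 Mb held 13.6% of all. The first Mb of BTA14 held 503 positions with a mean level of 26.98%. The sixth Mb of BTA29 held 426 with 57.7%, and the window of BTA27 from 28000001 to 29000000 held 332 with 21.1%. BTA27 had the most positions per Mb, 22.8, and BTA12 the fewest, 2.44. Chromosomes also differed in level, from a mean of 35.7% on BTA27 and 36.6% on BTA9 to 73.7% on BTA13 and 68.5% on BTA11. An annotation of the UMD 3.1 build was not used here, so genes, exons and CpG islands at these places are not given, and coordinates are those of the deposited files.

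The fullest tile was methylated, and the next 2 were not. The tile at chr17:51376001-51378000 held 50 positions over 1788 bp with a mean of 88.1%, of which 46 were over 80% and none was under 20%. Its bull means ran from 76.1% (H07), 77.3% (L06) and 77.9% (H04) over a median of 88.0% to 95.5% (H01). The tile at chr14:132001-134000 held 39 positions with a mean of 11.4% and bull means from 8.15% (L06) to 14.8% (L09). The tile at chr14:528001-530000 held 36 positions with a mean of 12.4% and bull means from 7.10% (L05) to 16.5% (H06). In both tiles of BTA14 no position was over 80%, and the bulls differed by less in points than in the tile of BTA17.

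The bulls resembled each other across the positions. The correlation of levels between bulls was between 0.925 and 0.953 over 153 pairs, as a description across positions. L06 stood apart, with the lowest bull mean over the low positions, 6.63% against 7.24% to 10.8% in the others, over the intermediate ones, 40.3% against 45.1% to 53.2%, and over the high ones, 90.7% against 92.9% to 94.9%. Its levels were more than 20 points from the median of the bulls at 7.85% of the positions, against 3.01% (H08) to 6.30% (L08) in the others. L06 was not the lowest bull over all listed positions, with 80.6% against 78.3% in H01, and it listed 18246972 positions, more than any bull but H08. H06 was the highest at low and intermediate positions. The number of listed positions was not seen to move with the mean at the chosen positions (Pearson's r = -0.29, permutation p = 0.244, adjusted 0.487; Spearman's rho = -0.20, permutation p = 0.436, adjusted 0.630; n = 18). Without H08 and L06, the bulls farthest from the median number, r was -0.13 (permutation p = 0.630). Over all listed positions it was 0.59 (permutation p = 0.00915, adjusted 0.0274 over the 6 coefficients of 3 relations) with rho = 0.62 (permutation p = 0.00753, adjusted 0.0274). The 6 bulls with listed coverage had a mean of 50.99% ± 1.04 (SD, n = 6) at the chosen positions and the other 12 had 50.4% ± 1.67 (SD, n = 12), a difference of 0.55 points within the spread (exact permutation test, p = 0.480).

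Most positions differed little between bulls. The SD over the 18 bulls had a median of 7.26 points, with quartiles of 4.93 and 11.02, and was larger at intermediate positions (median 12.4) than at low (5.98) and high ones (5.43). Of all 21128 positions, 41 had the same value in every bull, 39 of them 0% and 2 of them 100%. A range of 50 points or more between bulls was found at 2799 positions (13.2%), against 3.88% of the high-coverage positions. Those differ in level as well as in coverage, with 65.8% of them low against 33.95% here, and the part of either was not tested. In the 6 bulls with listed coverage, the variance between bulls was compared with the variance that sampling of reads alone gives. Over the 20657 positions whose pooled level was neither 0% nor 100%, the ratio had a median of 1.002 and a mean of 1.24. Sampling of reads alone gives equal variances on average but a median ratio below that, since the ratio is skewed with 6 bulls. The mean was thus above sampling of reads, and the median of 1.002 is not a match to it. The median and mean were 0.93 and 1.08 at pooled levels under 20%, 1.18 and 1.51 between 20% and 80%, and 0.96 and 1.17 over 80%. A ratio over 3 was found at 857 positions, 535 of them with pooled levels between 20% and 80%.

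The few positions that varied most stood among neighbours that varied less. An SD of 25 points or more was found at 166 positions in 159 tiles, and 144 of these had bulls at 15% or less and bulls at 85% or more. Of their values in single bulls 17.9% were at 15% or less, 31.6% between 35% and 65%, 34.9% at 85% or more and 15.7% in the gaps between these ranges. For 95 of them other positions listed in all 18 bulls lay within 200 bp. These neighbours had a median level of 94.2% and a median SD of 6.09 points, and were over 80% for 76.8% of the 95. Bisulfite reads do not tell an unmethylated cytosine from a thymine that a bull carries in its genome at that position, and genotypes of the bulls were not used here. Whether the values at these positions are methylation levels or sequence differences between bulls was therefore not tested, and this holds for each position with steps of this kind named below. At the 1326 positions with an SD from 15 to 20 points the neighbours had a median level of 56.5% and a median SD of 12.6. Along this scale the SD of the neighbours was 5.26 at an SD under 5, 13.6 at 20 to 25 and 6.09 above that, so it did not keep step with the SD of the positions at its upper end.

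**Figure D3:**
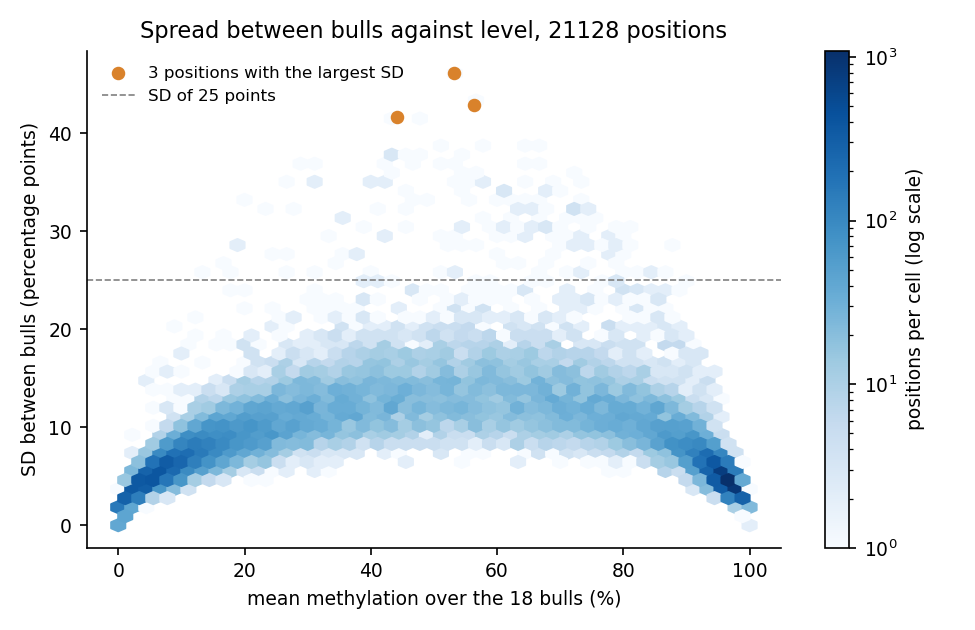
SD between the 18 bulls in percentage points (y axis) against mean methylation in percent (x axis) for the 21128 positions, with darker cells holding more positions on a log scale. Most positions form an arch with a median SD of 12.4 between 20% and 80%. Toward the top, 196 positions have an SD of 20 to 25 points and 166 lie at or above the dashed line of 25 points. The 3 with the largest SD are marked.

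The position with the largest SD was BTA18:9618287, with an SD of 46.1 points and a mean of 53.2%. Of the 18 bulls 7 were at 15% or less (0% in H03, H04, H06, H09 and L07, 4% in L06 and 5.88% in H02) and 8 at 85% or more (100% in H01, H05, H07, L03 and L08, 96.3% in H08, 94.1% in L01 and 88.2% in L02). L05 with 84.6%, L04 with 56.2% and L09 with 28.6% lay between. BTA9:33002806 had an SD of 42.9 points, with 5 bulls at 15% or less, all of them at 0% (H02, H03, H04, H06 and L03), and 8 at 85% or more. BTA8:101169104 had an SD of 41.7 points: H02, H03, L03, L05, L06, L08 and L09 were at 0%, 5 bulls lay between 35% and 65%, and H05, H09, L02 and L07 were at 100% with H07 at 91.7%. Coverage in the 6 bulls was 14 to 21, 13 to 20 and 11 to 18 reads at these 3 positions. They are the extremes of 21128, so their spread carries no test, and sequence differences between the bulls were not checked at them.

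Of the 25 genes that the study mapped to loci of gestation length, 4 held chosen positions, 10 in all and each inside the gene body. LOC107131356 (BTA4), CYSTM1 (BTA7) and NRG2 (BTA7), a growth factor that binds ERBB receptors, held 3 each, and WWP2 (BTA18), a ubiquitin ligase, held 1. Of the 10 positions, 9 had mean levels between 94.5% and 98.8%, with no bull under 82.4%. The position in WWP2 at chr18:37072744 had a mean of 95.7% ± 4.41 (SD, n = 18). The exception was the position at chr7:53097637 in CYSTM1, a gene for a small membrane protein, with 76.4% ± 12.9 (SD, n = 18), a lowest value of 50% in H05, a median of 79.3% and a highest of 92.3% in H04. A position 3 bp before it, at chr7:53097634, had 94.5% ± 6.32. The other 21 genes held no chosen position in their bodies or within 2000 bp.

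The trait groups were then compared at the chosen positions, first by the mean level of each bull. For GL the high bulls had 49.7% (L05), 50.3% (H09), 50.5% (H03) and 52.9% (L03), and the low bulls 49.3% (H05), 50.3% (H02), 50.6% (L07) and 50.6% (L01). These values overlap, with a difference of 0.65 points (high 50.9% ± 1.42, low 50.2% ± 0.63, SD, n = 4 each) that is within the spread (exact permutation test, two-sided, p = 0.543, where 0.0286 is the smallest possible). Without L03 it was -0.037 points, so its direction rests on this bull. For SCE the high bulls had 50.5% (H03), 50.7% (H07) and 51.4% (L02), and the low bulls 50.2% (H01), 50.2% (L09) and 53.4% (H06), a difference of -0.42 points (exact permutation p = 1), which was 0.67 points without H06. For BDE they had 50.3% (H02), 51.4% (L08) and 52.9% (L03) against 49.3% (H05), 50.3% (H09) and 51.4% (L02), a difference of 1.21 points (exact permutation p = 0.4), which was 0.51 points without L03 and 0.68 without H05. In these 3 traits no group stood apart. Each of them holds bulls with and without listed coverage. Within the bulls with coverage the difference was 1.24 points for GL, 0.79 for SCE and 0.24 for BDE, and within those without it was 0.07, -1.16 and 1.56, so for SCE the sign was not shared. In each of these for SCE and BDE, a group was a single bull. With coverage it was H01 for SCE and L02 for BDE, and without coverage H07 for SCE and L08 for BDE. The CCR bulls all lack listed coverage and the SCR bulls all have it.

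For CCR the high bulls had 46.6% (L06), 50.3% (H09) and 51.2% (H08) and the low bulls 50.2% (L09), 51.4% (L08) and 53.4% (H06). The difference was -2.30 points (exact permutation p = 0.3), and it was -0.93 points without L06 and -1.42 without H06. For SCR the high bulls had 50.2% (H01), 50.3% (H02) and 50.5% (H03), all below the low bulls with 50.6% (L01), 51.4% (L02) and 52.9% (L03), a difference of -1.33 points. The groups did not overlap, and the exact permutation p of 0.1 is the smallest that 3 bulls against 3 allow. Without L03 the difference was -0.69 points. At the low positions alone the same held for SCR (8.13% ± 0.34 against 9.25% ± 0.45, SD, n = 3 each) and for CCR (7.93% ± 1.20 against 9.66% ± 0.98, SD, n = 3 each), each with an exact permutation p of 0.1. Over the 20 such tests, of all positions and of 3 classes in 5 traits, the smallest adjusted p was 0.667. Mean coverage at the positions moved with the SCR groups in part, with 14.0, 16.98 and 18.9 reads in H01, H02 and H03 against 19.6, 19.1 and 17.6 in L01, L02 and L03, and its part in the difference was not tested.

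**Figure D4:**
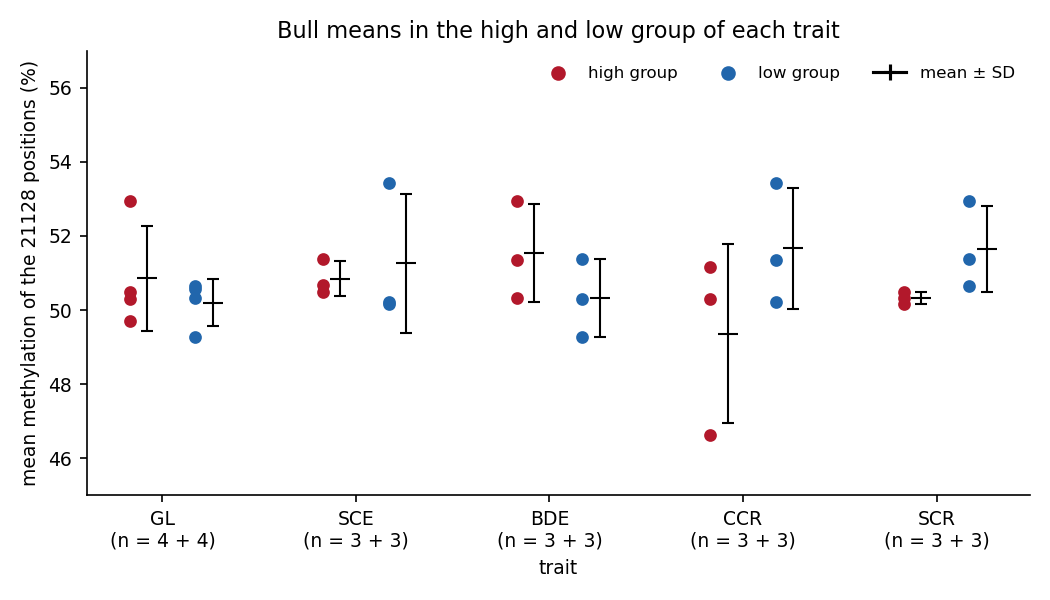
Mean methylation of the 21128 positions in percent (y axis, which does not start at 0) for each bull of the high and low group of 5 traits (x axis), with the group mean and SD beside the points. Only for SCR do the groups not overlap, and L06 is the lowest point, in the high group of CCR.

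Position by position, few differences passed the test. In each trait all autosomal positions listed in every bull of the comparison were fitted by a logistic model of the methylated share of reads with no term for the spread between bulls, with each position counted as 10 reads, or with the listed reads for SCR. A position was called when the Benjamini-Hochberg adjusted p was under 0.01 and the groups differed by more than 5 points. For GL 20 of the 21128 chosen positions were called, 11 higher and 9 lower in the high bulls, which is 0.0947% of them beside 0.0598% of the 329377 positions tested. For SCE 3 were called (0.0142% beside 0.0409% of 276109), for BDE 18 (0.0852% beside 0.0942% of 327901), for CCR 13 (0.0615% beside 0.0894% of 380208) and for SCR 30 (0.142% beside 0.124% of 310795). The share was above that of all positions tested for GL and SCR and below it for SCE, BDE and CCR, on counts of 3 to 30 positions, and the differences between these shares were not tested. The traits rest on unlike read numbers: with 10 reads per position, as in the other traits, SCR had 4 calls in place of 30, and with 13 reads GL had 32, SCE 15, BDE 28 and CCR 23. Intermediate positions made up 18 of the 20 calls for GL, 2 of 3 for SCE, 13 of 18 for BDE, 10 of 13 for CCR and 21 of 30 for SCR. The classes were set by the mean of the same bulls, and a mean near either end of the scale leaves less room for a difference between groups, so nothing is read from these counts. The calls fell in 19, 3, 17, 13 and 29 tiles, so nearly each stood alone in its tile.

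Tests that include the spread between bulls called almost none of the chosen positions. By limma, a linear model on log2 ratios of methylated to unmethylated reads, 0 were called for GL, SCE, CCR and SCR and 1 for BDE, the position BTA8:101169104. Over all positions tested limma called 0 for GL, SCE and CCR, 1 for BDE, which is this position (0.000305%), and 1 for SCR (0.000322%). At an unadjusted p under 0.05 with a difference over 5 points, limma counted 1229 (5.82%) for GL, 1283 (6.07%) for SCE, 1408 (6.66%) for BDE, 1418 (6.71%) for CCR and 1194 (5.65%) for SCR. Over all positions tested the same shares were 4.84%, 5.65%, 5.86%, 5.57% and 4.27%. An F test with an estimated overdispersion called 0 in each trait, among the chosen positions and over all tested. With so few bulls and reads this test could hardly reach an adjusted p under 0.01, so nothing is read from its 0 calls. At an unadjusted p under 0.05 with a difference over 5 points it counted 83 chosen positions for GL (0.393% beside 0.357% of all tested), 33 for SCE (0.156% beside 0.131%), 63 for BDE (0.298% beside 0.25%), 34 for CCR (0.161% beside 0.238%) and 157 for SCR (0.743% beside 0.743%). The bulls of a group did not overlap those of the other at 452 chosen positions for GL (2.14% beside 2.01% of all tested), 1589 for SCE (7.52% beside 8.44%), 1752 for BDE (8.29% beside 8.3%), 1856 for CCR (8.78% beside 7.57%) and 1680 for SCR (7.95% beside 8.25%). Of these positions without overlap the high bulls were the higher ones at 60.8% for GL, 42.2% for SCE, 64.8% for BDE, 24.8% for CCR and 33.5% for SCR, beside 60.7%, 32.9%, 64.0%, 26.95% and 29.3% of those over all positions tested, so in each trait the chosen positions leaned to the same side as all tested.

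Typical differences were small in every trait. The median difference over the chosen positions, high minus low, was 0.42 points for GL, -0.26 for SCE, 0.67 for BDE, -1.57 for CCR and -0.82 for SCR, beside 0.24, -0.65, 0.45, -1.20 and -0.82 over all positions tested. The median size of the difference was 3.32 points for GL and between 3.95 and 4.10 for the other traits, beside 2.70 and 3.29 to 3.47 over all. In the 1115 tiles with 5 or more chosen positions, the tile difference was over 5 points in 136 tiles for GL, 195 for SCE, 218 for BDE, 280 for CCR and 225 for SCR. Over all positions each bull lists in these tiles, it was over 5 points in 94, 125, 170, 210 and 151 tiles. Of these, 42, 76, 106, 144 and 94 tiles were over 5 points in the same direction by both measures, so the chosen positions and the whole tile often differed in which tiles passed this size.

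The largest differences for GL were at single positions. They were taken among positions whose groups did not overlap, so their size is a description, and for these and the positions of the other traits named below sequence differences between bulls were not checked. At BTA18:1946090 the high bulls had 0% (H03), 0% (L03), 25% (L05) and 50% (H09), and the low bulls 90% (L01), 91.7% (L07), 100% (H02) and 100% (H05), a difference of -76.7 points (logistic adjusted p = 1.32e-08, limma adjusted p = 0.428). At BTA19:16723014 the high bulls had 0% (H09 and L05) and 50% (H03 and L03) and the low bulls 88.2% to 100%, a difference of -67.9 points. Both were lower in the high bulls, and at each the high bulls fell on different levels rather than on a common one. At BTA10:77414853 the high bulls had 60% to 92.3% and the low bulls 0% to 40.0%, 54.3 points higher. At BTA4:13517847 they had 50% to 100% against 0% to 41.7%, 50.6 points higher, while its 3 neighbours within 200 bp had 97.2% in the high and 97.9% in the low bulls. The single neighbour of BTA10:77414853 had 84.6% and 77.0%.

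For SCE the named differences ran from -50.1 to 57.9 points. At BTA27:1399643 the high bulls had 92.3% (H07), 100% (L02) and 100% (H03), and the low bulls 0% (H01), 27.8% (H06) and 90.9% (L09), a difference of 57.9 points with L09 close to the high bulls (logistic adjusted p = 9.62e-04, limma adjusted p = 0.770). At BTA11:93210557 the difference was 51.4 points, with 55.6% to 100% in the high and 0% to 50% in the low bulls. At BTA12:76454770 it was -50.1 and at BTA21:8091489 -46.2 points. Only the first of these 4 positions passed the logistic test. The 4 neighbours of BTA11:93210557 within 200 bp had 95.9% in the high and 96.0% in the low bulls.

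For BDE the reads of a single position separated the groups completely. At BTA8:101169104, also among the 3 with the largest SD, H02, L03 and L08 were at 0% and H05, H09 and L02 at 100%, a difference of -100 points (logistic adjusted p = 2.46e-14, limma adjusted p = 0.00524). A difference in sequence between these bulls would give the same percents and was not tested. Its 2 neighbours within 200 bp had 98.3% in the high and 94.6% in the low bulls. Of the 12 bulls outside the comparison H03, L05, L06 and L09 were also at 0% and L07 at 100%, with the others between 36.4% and 91.7%. At BTA17:67625880 the high bulls were all at 100% and the low bulls at 0% (L02), 37.5% (H05) and 46.7% (H09), 71.9 points higher, and each of the 12 bulls outside the comparison was at 92.3% or 100%. At BTA13:34037919 the high bulls had 90.9% to 100% and the low bulls 0% to 58.3%, 72.4 points higher. At BTA16:49960131 the difference was -66.4 points, with 0% in H02 and L08 and 36.8% in L03 against 52.6% to 100%.

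For CCR the largest difference was at BTA13:70018511, where the high bulls had 0% (H08), 0% (L06) and 41.7% (H09) and the low bulls 86.7% (L09), 92.9% (L08) and 100% (H06). It was -79.3 points (logistic adjusted p = 1.29e-06, limma adjusted p = 0.345), and its single neighbour within 200 bp had 76.9% and 76.7%. At BTA15:29264100 the difference was -61.3 points, with 0% (L06), 3.23% (H08) and 25% (H09) against 53.8% to 100%. At BTA27:13522273 the high bulls were 69.7 points higher, with 75% to 100% against 0% (H06 and L09) and 53.3% (L08). At BTA13:80061662 they were 49.2 points higher, all at 100%, against 30% (L08), 37.5% (L09) and 85% (H06), and the 3 neighbours had 98.6% and 97.4%.

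For SCR, whose counts are listed, 2 of the 4 named positions lay 42 bp apart on either side of a tile border. At BTA21:30509964 the high bulls had 93.3% (H01), 100% (H02) and 90.5% (H03) and the low bulls 72.2% (L01), 0% (L02) and 53.3% (L03), 52.8 points higher (logistic adjusted p = 2.65e-07, limma adjusted p = 0.995). At BTA21:30510006 they had 45.5%, 100% and 54.5% against 4.55%, 0% and 41.7%, 51.3 points higher. This pair was the case among the 20 where the only neighbour within 200 bp differed as much, since each was the neighbour of the other. At BTA8:97414358 the difference was -55.4 points, with 46.2% (H01), 73.3% (H02) and 0% (H03) against 92.3% to 100%. At BTA7:65041526 it was -51.3 points, and its 2 neighbours had 60.7% in the high and 85.3% in the low bulls.

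**Figure D5:**
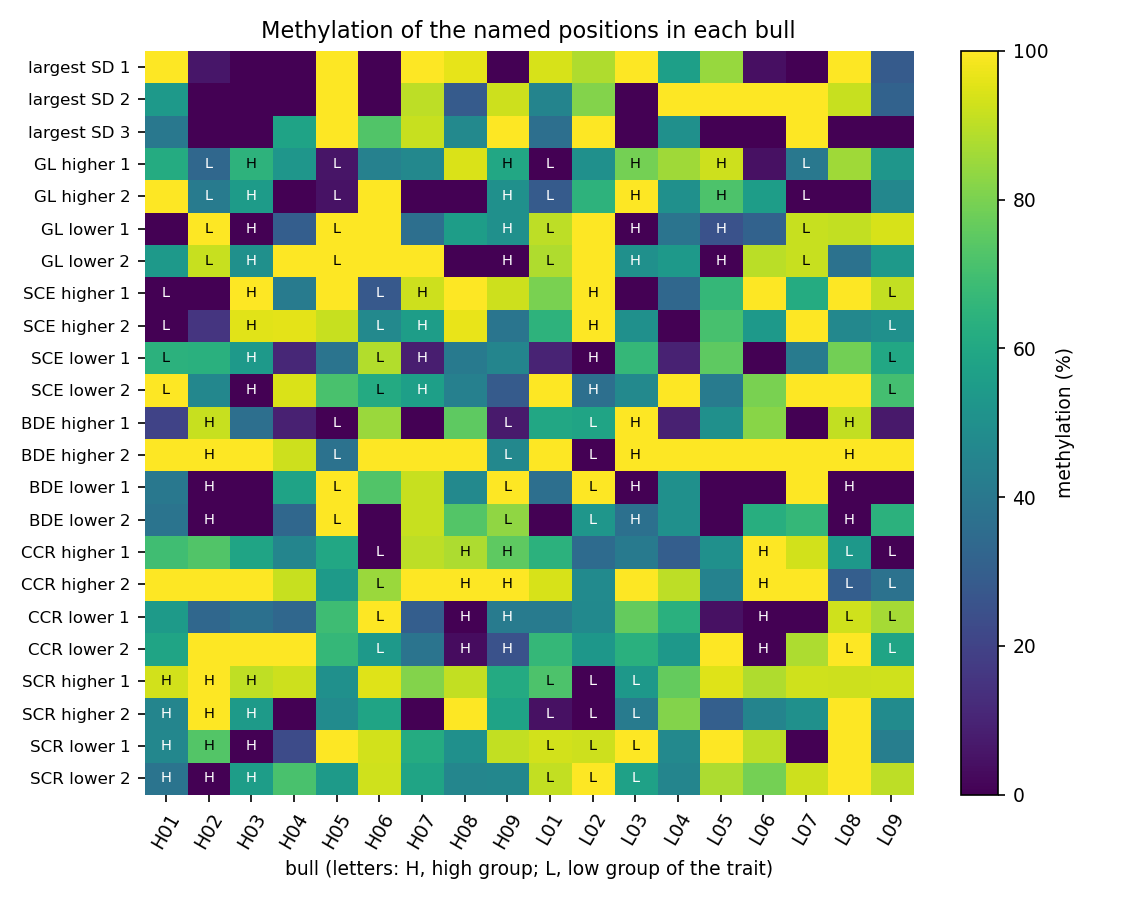
Methylation in percent (colour) of the named positions (rows: the 3 with the largest SD, then for each trait 2 higher and 2 lower in the high group) in the 18 bulls (columns), with H and L marking the bulls of the high and low group. The position BDE lower 1, which is also largest SD 3, is at 0% in all 3 high bulls and at 100% in all 3 low bulls, and bulls outside a comparison take values over the whole scale in most rows.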

How the data were processed

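Sperm DNA of 18 bulls was sequenced as 150 bp paired reads after bisulfite treatment. Per the submitters' processing notes the authors used FastQC 0.11.2, Trim Galore 0.4.0, Bowtie2 and Bismark 0.14.5 with the UMD3.1 genome, and kept positions with at least 10 reads. The authors deposited the percent of methylated reads per position for each bull and, for 6 bulls, the count of reads (coverage). Positions were listed per strand of a CpG. Levels were kept per bull, whereas the logistic test summed the reads of the bulls in each group.

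Positions were selected as stated, and levels were averaged over positions with equal weight. The members and lists were chosen with earlier results of these data known. The planned test needs reads for each bull, and 10 reads per position stood in for them in GL, SCE, BDE and CCR, where some or all bulls have none. The likelihood ratio test of the logistic regression followed the study's methods, at positions in place of tiles. It was fitted on all positions listed in every bull of a comparison, with Benjamini-Hochberg adjustment. Alternatives were limma 3.58.1 (R 4.3.3, with 1 read added to each count), an F test with overdispersion of at least 1, a simplified SLIM adjustment, 13 reads per position, other thresholds, stratification by file format (coverage listed or not) and each bull left out. Python 3.11.15, NumPy 2.4.6, SciPy 1.17.1 and matplotlib 3.10.9 were used. Named positions were, per trait, the 2 largest higher and 2 largest lower differences among positions with groups that did not overlap, at most 1 per 2000 bp tile, the 3 largest SDs and the 3 fullest tiles, with the study's fine-mapped genes. Sperm and other cell type markers, and gene lists other than the study's fine-mapped genes, were not checked here, since no annotation of UMD3.1 was used. Coverage of 12 bulls is unknown, so no interval that needs it is given.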

Additional observations from a re-analysis of the deposited data

Results flagged for a closer look

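Among the bull means, named positions, fullest tiles and gene positions, the 4 high-GL and the 4 low-GL bulls were searched for a bull far from its group by Dixon's test at the 95% level, which flags about 1 in 20 groups by chance. Of 50 such groups 5 were flagged, and most hold values at the end of the scale. At BTA8:101169104 the high-GL bull H09 was at 100% while H03, L03 and L05 were at 0%. At chr4:95531808 in LOC107131356 the high-GL bull L05 was at 95.8% while the other 3 were at 100%. At chr4:95565666 in the same gene H03 was at 91.7% with the other 3 high-GL bulls at 100%. At chr7:52754063 in NRG2 the high-GL bull H09 was at 82.4% with the others at 100%. At chr18:37072744 in WWP2 the low-GL bull H05 was at 100% while the others were between 92.9% and 93.8%. No bull mean over the chosen positions was flagged.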

How the results depend on the processing

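The chosen positions were lower than the other positions of a bull under 4 of 5 alternatives, from -55.8 to -7.07 points, of which 1, without H01 in the rule (-28.2 points), was chosen after seeing the data. The direction turned against other positions of the same tiles, pooled and not taken tile by tile (14.0 points). The relation with the number of listed positions turned from r = -0.29 to 0.59 when all listed positions were averaged. No mean difference of a trait passed the threshold under any alternative, and with 3 bulls against 3 those of SCE, BDE, CCR and SCR could not. With each bull left out the GL difference ran from -0.037 (without L03) to 1.04 points, the SCE difference from -0.97 to 0.67 (without H06), the BDE difference from 0.51 to 1.82, the CCR difference from -3.20 to -0.93 and the SCR difference from -1.84 to -0.69, so GL and SCE lost their direction. Counts of called positions depended more on the test. For GL, SCE, BDE, CCR and SCR, limma called 0, 0, 1, 0 and 0, and the F test 0 in each, which so few bulls all but fix. With a coverage limit of 20 the counts of the logistic test were 7, 0, 9, 6 and 10, where fewer positions enter. With 13 reads per position GL had 32 calls, SCE 15, BDE 28 and CCR 23, and with 10 reads SCR had 4. Stratification by file format left 1 for SCE, and without a coverage limit SCR had 67. With each bull left out GL had 11 to 19 calls, SCE 3 to 6, BDE 8 to 27, CCR 6 to 15 and SCR 22 to 42. Over 1.5 times from the full count were GL without H05 (11), L07 (11) or L01 (12), SCE without H03 (5), L09 (5) or H07 (6), BDE without H02 (8) or H05 (10) and CCR without H08 (6), H09 (7) or L08 (8). The cause was not tested. The other 99 of 136 values kept their direction and side of the threshold, or a count within 1.5 times. Among them the mean differences of SCE, BDE, CCR and SCR could change in direction only, since 3 bulls against 3 cannot reach the threshold.

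The labels give no replicate numbers, but the bulls of CCR and SCR share the numbers in their names across groups. These are different animals, and deviations of same-numbered bulls from their group means had correlations across positions from -0.096 to 0.048, so they share only a number. Only H08, L08 and H02 correlated best with the bull of their own number. With the number as a replicate block, added after seeing the data, CCR had 11 calls and a mean difference of -2.30 points (exact permutation p = 0.5), and SCR had 23 calls and -1.33 points (exact permutation p = 0.25, the smallest possible). The groups of GL, SCE and BDE share at most 1 number, so no such block could be fitted there. Read depth limits these values: 10 to 29 reads give a single position steps of several points, the depth of 12 bulls is unknown, and 3 bulls against 3 cannot pass a threshold of 0.05 by exact permutation.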
